A study of Homo sapiens with 12 samples.

Results

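The HOX cluster genes of 3 established prostate cell lines were examined by RNA sequencing. The members were the rows of the deposited table marked protein-coding whose symbol is HOX followed by a letter from A to D and a number, which gave 39 of the 58302 genes in the table. By cluster these were 11 HOXA genes on chromosome 7, 10 HOXB genes on chromosome 17, 9 HOXC genes on chromosome 12 and 9 HOXD genes on chromosome 2 (GRCh38). The study compared BPH-1, which the labels give as a benign prostate line, with PC3 and DU145, both prostate cancer (PCa) lines, and there were 4 libraries of each. All lines are labelled wild type, were grown untreated in the same serum-supplemented medium, and no dose or time point was set. BPH-1 is an immortalised epithelial line from a benign prostate, PC3 came from a bone metastasis and DU145 from a brain metastasis. Since only BPH-1 stands for benign tissue, its disease state and the line itself cannot be told apart. The labels do not say whether the libraries of a line came from separate cultures, so the p-values measure the spread between these libraries, which may be technical.

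HOX genes encode homeodomain transcription factors that give body regions their identity during development. Their order along each cluster follows the order in which they are used from head to tail, so that the low-numbered (anterior) genes act in the hindbrain and neck and the high-numbered (posterior) genes in the lumbar spine, limbs and urogenital tract. Genes with the same number in different clusters are paralogues. HOXB13, at the posterior end of HOXB, is known as a marker of the prostate lineage.

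The values are FPKM (fragments per kilobase of gene length, scaled to library depth). The length that fitted them sums all distinct exons, so bases shared by overlapping exons of a gene count more than once. Genes with many overlapping exons, such as HOXB3 with a length of 17485 bases, thus read lower. Levels of a gene can be compared between lines, but those of different genes only roughly. Library depth, recovered from the steps between low values, was 12950714 to 16310370 reads. The epithelial keratins KRT8 and KRT18 were present in every library, whereas EPCAM was at 57.7 to 63.2 FPKM in BPH-1, 6.92 to 11.1 in PC3 and 0.167 to 0.573 in DU145, and CDH1 was at 16.3 to 44.6, 0.427 to 1.42 and 0.0851 to 0.297 in the same order. Not all epithelial markers fell, since the 5 listed summed to 149 to 208 FPKM in BPH-1, 220 to 367 in PC3 and 84.1 to 163 in DU145. Of 5 prostate luminal markers, KLK3 was at 0 in all libraries, and KLK2 was at 0 to 0.0114 in BPH-1 and at 0 elsewhere. The 3 basal markers together were at 298 to 427 FPKM in BPH-1, at most 0.0645 in PC3 and at most 0.994 in DU145.

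Transcripts of leukocytes divided the DU145 libraries. PTPRC, the leukocyte surface phosphatase CD45, was at 1.40, 1.54, 1.31 and 1.15 in BPH-1, at 0 in PC3 and at 1.35, 1.25, 0 and 0 in DU145. Thus DU145 replicates 1 and 2 carried about the BPH-1 level and replicates 3 and 4 none. Of the other leukocyte markers listed, CD3E was at 0 in all libraries, while CD68, which many tumour cells also express, was highest in PC3. The 3 markers summed to 4.83 to 8.11 in BPH-1, 6.86 to 13.46 in PC3 and 5.06 to 9.95 in DU145. MNDA, a myeloid gene chosen after its values were seen, showed the same division, with 4.22 to 5.42 in BPH-1, 4.08 and 4.66 in DU145 replicates 1 and 2, and 0 in the other 6 libraries. The division was not confined to leukocyte transcripts. The 3 basal markers, high in BPH-1, summed to 0.662 to 0.994 in DU145 replicates 1 and 2 and to 0 to 0.0618 in replicates 3 and 4. Its cause was not tested. DU145 libraries also fell into the pairs 1 with 3 and 2 with 4 by their whole profile, since the mean chi-square per gene was 37.0 and 23.7 within these pairs and 104 to 215 between them. Results that rest on DU145 are therefore also given for replicates 1 and 2 or replicates 3 and 4 alone where a call changed.

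Promoters of 4 posterior members that were at or near 0 in at least 1 PCa line are shown first, because these genes return below. RefSeq promoters were at hand for 20 of the 39 members, not including HOXB13, HOXB9 and HOXB7. Each sequence is the stretch of 250 bases before a RefSeq start of the gene (GRCh38.p14), in lower case with CG dinucleotides in capitals. For HOXD10, HOXD11 and HOXA9 this stretch lies inside the span of the gene in the deposited table. The levels of these genes may thus include transcripts that start elsewhere. HOXD10 (chr2:176116528-176116777, plus strand) and HOXD11 (chr2:176107030-176107279, plus strand) were read in BPH-1 alone among the lines, apart from 1 and 3 reads in a single DU145 library. HOXA9 (chr7:27165538-27165787, minus strand) and HOXA13 (chr7:27200092-27200341, minus strand) were high in BPH-1 and PC3 and low in DU145.
HOXD10: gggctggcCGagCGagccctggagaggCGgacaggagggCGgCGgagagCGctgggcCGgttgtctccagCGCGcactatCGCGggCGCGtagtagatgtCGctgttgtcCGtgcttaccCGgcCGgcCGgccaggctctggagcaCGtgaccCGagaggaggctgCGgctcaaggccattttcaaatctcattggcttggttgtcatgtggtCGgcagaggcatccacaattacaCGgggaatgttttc
HOXD11: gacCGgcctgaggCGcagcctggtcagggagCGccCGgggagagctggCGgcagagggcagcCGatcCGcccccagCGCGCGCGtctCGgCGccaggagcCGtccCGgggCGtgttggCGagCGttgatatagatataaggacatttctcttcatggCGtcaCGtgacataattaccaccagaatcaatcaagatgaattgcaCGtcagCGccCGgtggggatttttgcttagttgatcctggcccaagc
HOXA9: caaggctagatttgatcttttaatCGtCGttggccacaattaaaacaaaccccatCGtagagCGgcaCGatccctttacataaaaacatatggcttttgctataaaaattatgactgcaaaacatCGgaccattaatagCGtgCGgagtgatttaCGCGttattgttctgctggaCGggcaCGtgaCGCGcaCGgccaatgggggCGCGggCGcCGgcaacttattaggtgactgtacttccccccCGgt
HOXA13: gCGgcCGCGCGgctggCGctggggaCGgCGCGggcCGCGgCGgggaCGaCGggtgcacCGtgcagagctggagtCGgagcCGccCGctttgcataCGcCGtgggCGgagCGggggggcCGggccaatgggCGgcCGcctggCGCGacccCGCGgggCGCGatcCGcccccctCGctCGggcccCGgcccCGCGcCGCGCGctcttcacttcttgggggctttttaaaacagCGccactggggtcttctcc
These stretches hold 23, 23, 20 and 40 CG dinucleotides in the order shown. Over the 300-base promoters of the table, which run on for 50 bases into the gene, the median was 22.5 CG dinucleotides in the 26 different promoters of HOX genes against 14 in all 35116 promoters, and the ratio of observed to expected CG was 0.855 against 0.579. The hexamer CACGTG, an E-box that reads the same on both strands, stood in 9 of the 26 HOX promoters (34.6%) and in 7.26% of all promoters, and the HOXD10, HOXD11 and HOXA9 stretches printed above each hold it. TATAAA, counted on both strands, stood in 5 of the 26 (19.2%) against 11.5% of all. These are descriptions of letters, and neither methylation nor binding was measured.

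Summed over its 39 members, the HOX level was 104.5 ± 5.5 FPKM (SD, n = 4) in BPH-1, 149 ± 7.8 in PC3 and 136 ± 21 in DU145. BPH-1 drew on all 4 clusters, with 37.1% ± 4.0 of its HOX sum from HOXA, 21.3% ± 2.2 from HOXB, 12.9% ± 0.6 from HOXC and 28.7% ± 3.8 from HOXD. In PC3 the shares were 32.0% ± 1.1 from HOXA, 56.8% ± 1.6 from HOXB, 9.40% ± 0.59 from HOXC and 1.78% ± 0.40 from HOXD. In DU145 HOXA gave 7.01% ± 1.26, HOXB 76.5% ± 2.3, HOXC 13.03% ± 1.16 and HOXD 3.44% ± 0.64. HOXD thus gave more of the sum than HOXB in BPH-1 and the least of the 4 clusters in both PCa lines. HOXA was a small part in DU145. Because genes with overlapping exons read lower, sums and shares here and below are rough within a line.

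**Figure D1:**
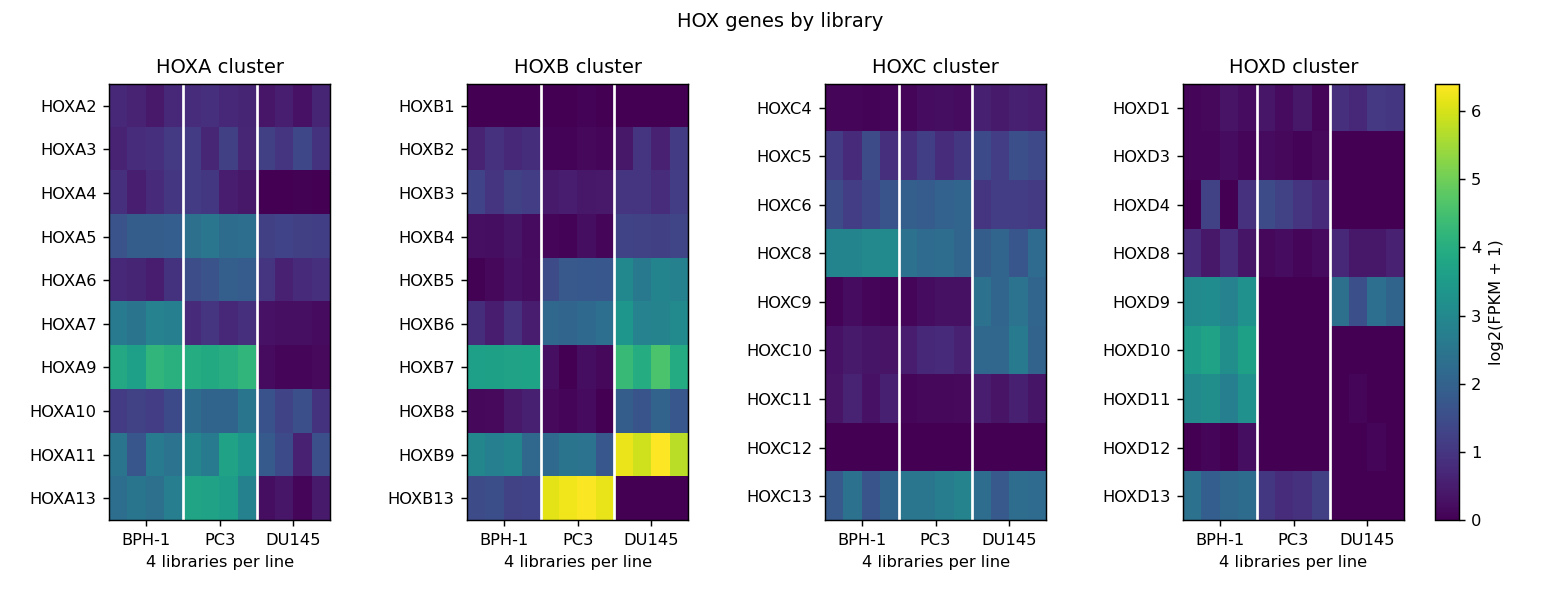
Level of 38 HOX genes, as log2(FPKM + 1), in each of 4 libraries per line, with 1 panel per cluster and genes ordered by paralogue number from top to bottom. HOXB13 stands out in PC3 and HOXB9 in DU145, and the block from HOXD9 to HOXD11 is bright in BPH-1.

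In both PCa lines a single gene made up about as much of the sum as all other members together, but not the same gene. HOXB13 gave 49.9% ± 1.2 (SD, n = 4) of the HOX sum in PC3, 1.55% ± 0.31 in BPH-1 and 0 in DU145. HOXB9 gave 49.4% ± 3.4 in DU145, 5.43% ± 1.58 in BPH-1 and 2.49% ± 0.62 in PC3. The leading gene of BPH-1 was HOXA9, with 13.8% ± 2.3 of its sum.

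**Figure D2:**
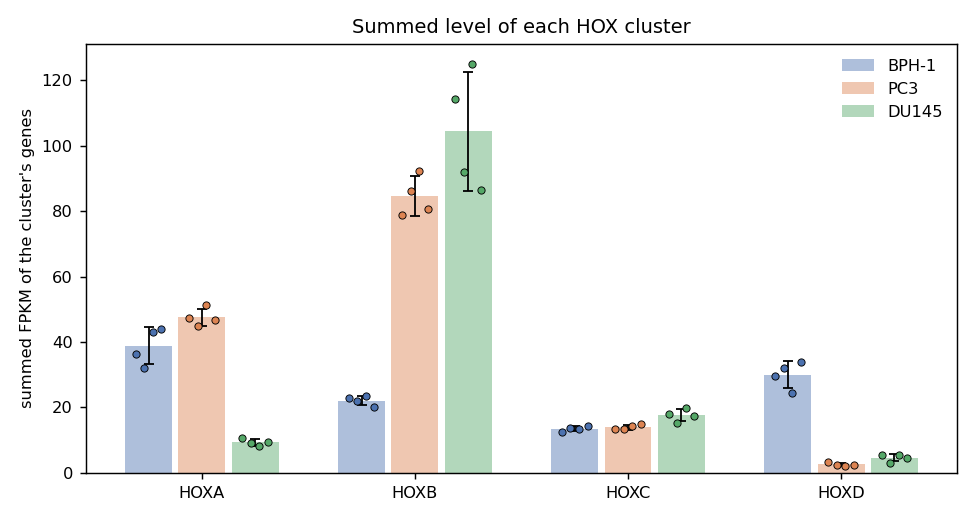
Summed FPKM of the genes of each HOX cluster by line, as bars for the mean with the SD (n = 4) and points for the libraries. HOXB is lowest in BPH-1 (20.2 to 23.5), HOXA is lowest in DU145 (8.16 to 10.8) and HOXD is highest in BPH-1 (24.4 to 33.8).

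By position, posterior genes (numbers 9 to 13) led in every line, with 61.6% ± 1.5 of the sum in BPH-1, 82.4% ± 0.9 in PC3 and 62.9% ± 2.8 in DU145. Central genes (4 to 8) gave 31.6% ± 1.3 in BPH-1, 15.7% ± 0.9 in PC3 and 32.5% ± 1.8 in DU145. The posterior lead in DU145 rested on HOXB9, which alone gave 49.4% of the sum. Without HOXB9 the central genes would lead there. In PC3 HOXB13 gave 49.9%, and the other posterior genes together still exceeded the central genes. Anterior genes (1 to 3) gave 6.83% ± 0.41, 1.88% ± 0.33 and 4.63% ± 1.22 in the same order. At a mean of at least 1 FPKM there were 19 members in BPH-1, 14 in PC3 and 18 in DU145, and 28 members reached that level in at least 1 line. The rule that members are described by library from a mean of 1 FPKM just included HOXD4 (1.19 in PC3) and HOXA3 (1.21 in DU145) and just left out HOXD1 (0.892 in DU145) and HOXA4 (0.751 in PC3).

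**Figure D3:**
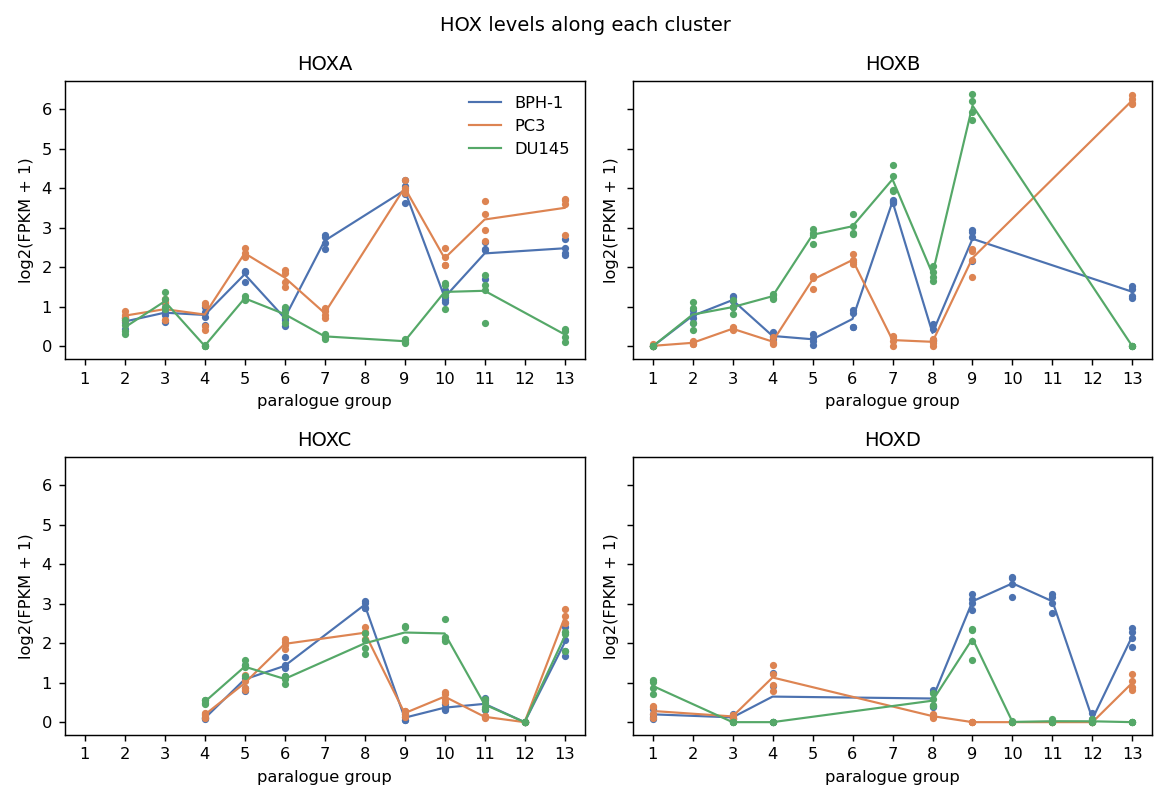
HOX levels as log2(FPKM + 1) against paralogue group, 1 panel per cluster, with points for libraries and lines joining the means of each cell line. In HOXB the DU145 line peaks at group 9 and falls to 0 at group 13, where the PC3 line peaks.

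Each pair of lines was then compared by limma on log2(FPKM + 1), with Benjamini-Hochberg adjustment over all genes tested and an adjusted p under 0.05 as the threshold. A log2 fold change below is a difference of these log values, the first line named minus the second, and understates the change of low genes. For PC3 against BPH-1, 30 of 39 members passed the filter on low reads, and 11 of them (36.7%) rose and 12 (40.0%) fell, where 27.1% and 40.4% of the 16411 genes tested did so. Dividing out each library's trend with GC content left 6 higher and 15 lower, beside 18.9% and 48.6% of all genes. For DU145 against BPH-1, 34 members passed the filter, and 10 (29.4%) rose and 13 (38.2%) fell, against 30.3% and 32.4% of 17017 genes, and with the GC trend divided out 9 were higher and 17 lower, beside 21.4% and 40.7%. For PC3 against DU145, 33 passed it, and 14 (42.4%) were higher in PC3 and 17 (51.5%) in DU145, against 20.0% and 28.4% of 16422 genes. Members read in 1 line alone pass the filter through that line and had to differ, so these counts do not describe all 39. The first 2 comparisons share the BPH-1 libraries. The median log2 fold change of the members tested was 0.03, -0.03 and -0.31 in the 3 comparisons in this order, and that of all genes -0.13, -0.03 and -0.05.

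**Figure D4:**
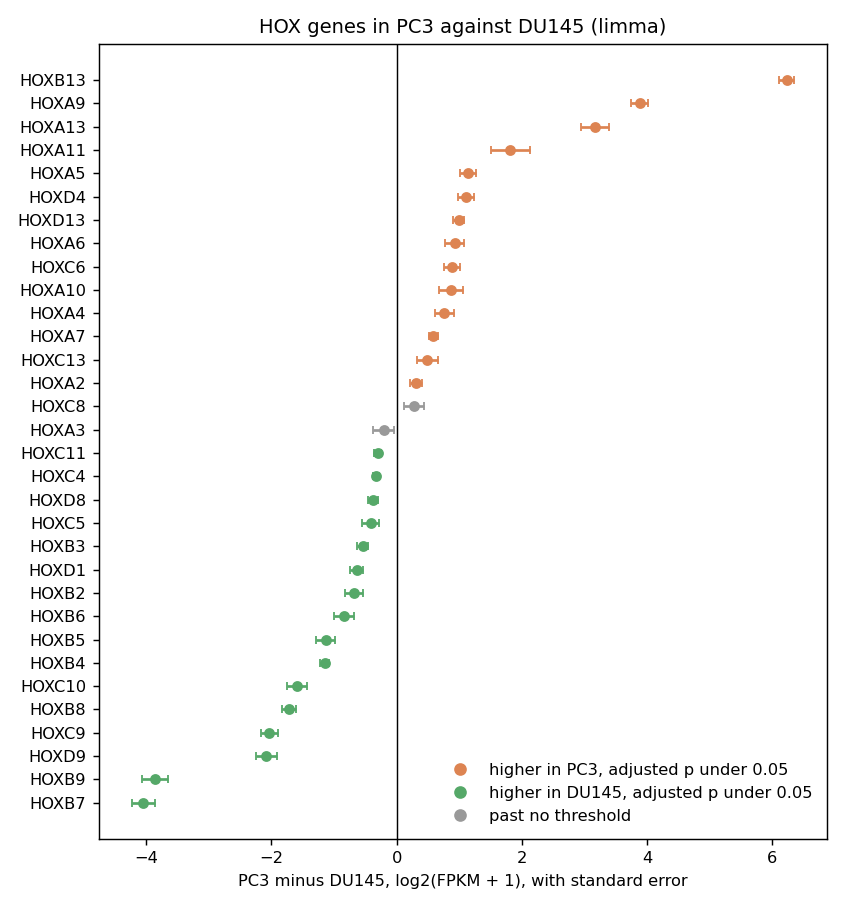
Difference in mean log2(FPKM + 1) between PC3 and DU145 for 32 of the 33 HOX genes tested, with the standard error (limma, n = 4 per line), coloured by the line in which the gene was higher at an adjusted p under 0.05. HOXB13, whose value depends on the added 1 because DU145 held no read, is farthest to the PC3 side and HOXB7 and HOXB9 are farthest to the DU145 side.

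HOXB13 was read in BPH-1 and PC3 and not in DU145. It lies at chr17:48724763-48729178 on the minus strand, 98.4 kb from HOXB9, its nearest neighbour in the cluster. It was at 1.76, 1.89, 1.34 and 1.44 FPKM in BPH-1, at 69.4, 75.3, 81.1 and 71.3 in PC3 and at 0 in each DU145 library. No PC3 library overlapped another line, and no read was counted in DU145. PC3 exceeded BPH-1 by a log2 fold change of 4.86 ± 0.11 (SE, adjusted p = 4.73e-09). With 3 reads per library as the limit of what a 0 allows, PC3 was at least 1309-fold higher than DU145 and BPH-1 at least 28.3-fold higher. Directions and calls of HOXB13 held under every alternative in which it was tested.

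HOXB9, a posterior gene active in the trunk and in mammary and lung epithelium, showed the reverse order between the PCa lines. It was at 6.71, 5.81, 6.44 and 3.50 FPKM in BPH-1, 3.59, 4.55, 4.38 and 2.36 in PC3 and 73.6, 60.6, 83.4 and 52.6 in DU145. Every DU145 library was far above the other 8, and replicates 1 and 3 were above replicates 2 and 4. The log2 fold change was 3.38 ± 0.22 (SE, adjusted p = 1.45e-06) for DU145 against BPH-1 and -3.87 ± 0.21 (SE, adjusted p = 1.25e-06) for PC3 against DU145. BPH-1 and PC3 overlapped, and PC3 against BPH-1 gave -0.48 ± 0.22 (SE, adjusted p = 0.0736). That difference was called without BPH-1 replicate 4, its lowest library (adjusted p = 0.0157), with FPKM brought to the same sum in each library (adjusted p = 0.0148) and after the GC correction (-1.04, adjusted p = 0.00589).

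HOXB7, whose product is studied in breast and other carcinomas, was nearly absent from PC3 alone. Its level was 11.3, 11.6, 11.9 and 12.1 in BPH-1, 0.195, 0, 0.182 and 0.0974 in PC3 and 19.0, 14.7, 23.2 and 14.2 in DU145. PC3 held at most 6 reads in a library, against 414 to 850 in the others. The log2 fold change was -3.51 ± 0.11 (SE, adjusted p = 2.15e-08) for PC3 against BPH-1 and -4.05 ± 0.18 (SE, adjusted p = 5.27e-07) against DU145. DU145 lay above BPH-1 in each library, at 0.54 ± 0.18 (SE, adjusted p = 0.0227), but this call was lost without BPH-1 replicate 1 (adjusted p = 0.0566), without DU145 replicate 1 (adjusted p = 0.0645), with DU145 replicates 3 and 4 only (adjusted p = 0.0552) and with the same FPKM sum (0.30, adjusted p = 0.168), and the GC correction turned it to -0.09 (adjusted p = 0.478). HOXB7 was at 19.0 and 14.7 in the DU145 libraries with PTPRC and at 23.2 and 14.2 in those without.

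The central genes HOXB5 and HOXB6 rose in 2 steps over the lines. HOXB5 was at 0.0318, 0.0963, 0.253 and 0.157 in BPH-1, 1.74, 2.47, 2.40 and 2.31 in PC3 and 6.89, 5.05, 6.38 and 6.06 in DU145. HOXB6 was at 0.785, 0.411, 0.881 and 0.402, 3.38, 3.25, 3.57 and 4.03 and 9.27, 6.19, 6.26 and 7.25 in the same order. No libraries of different lines overlapped for either gene. PC3 exceeded BPH-1 by 1.51 (adjusted p = 1.88e-06) for HOXB5 and 1.503 (adjusted p = 9.05e-06) for HOXB6, and DU145 exceeded BPH-1 by 2.64 (adjusted p = 5.15e-07) and 2.35 (adjusted p = 4.31e-06). Part of HOXB6 is uncertain, since 16.6% of its exon bases are also exon of HOXB3 on the same strand.

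HOXB8 and HOXB4 were raised in DU145 alone. HOXB8 was at 0.106, 0.128, 0.357 and 0.480 in BPH-1, 0.126, 0.0713, 0.141 and 0 in PC3 and 2.71, 2.14, 3.08 and 2.36 in DU145. HOXB4, best known for expanding blood stem cells, was at 0.207, 0.174, 0.291 and 0.136, 0.0617, 0.0388, 0.173 and 0.0822 and 1.48, 1.34, 1.31 and 1.53 in the same order. DU145 exceeded BPH-1 by 1.499 (adjusted p = 1.31e-05) for HOXB8 and 1.01 (adjusted p = 5.43e-06) for HOXB4, with no overlap. HOXB3, by contrast, was lowest in PC3, at 1.43, 0.986, 1.38 and 1.23 in BPH-1, 0.375, 0.405, 0.330 and 0.349 in PC3 and 0.988, 0.985, 0.752 and 1.25 in DU145. PC3 was below BPH-1 (-0.72, adjusted p = 3.9e-05) and below DU145 (-0.54, adjusted p = 0.00099). Between DU145 and BPH-1, HOXB3 differed by -0.18 (adjusted p = 0.219), and the libraries overlapped, but it was called lower with the same FPKM sum (-0.31, adjusted p = 0.0414) and after the GC correction (-0.58, adjusted p = 0.0148). Along HOXB, then, PC3 was read at its posterior end, weakly at HOXB3, HOXB5, HOXB6 and HOXB9 and hardly at HOXB2, HOXB4, HOXB7 and HOXB8. HOXB3 had 79 to 97 reads in each PC3 library. DU145 was read from HOXB2 to HOXB9 and not at HOXB13.

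In HOXA, HOXA9, a posterior gene known for its part in myeloid leukaemia, was the leading member of BPH-1. Its level was 13.4, 11.3, 17.6 and 15.7 in BPH-1, 14.5, 13.8, 14.99 and 17.5 in PC3 and 0.145, 0.0722, 0.0545 and 0.113 in DU145. BPH-1 and PC3 overlapped, and DU145 was at 5 to 14 reads a library against 1024 to 1628 in the others. The log2 fold change was -3.81 ± 0.17 (SE, adjusted p = 1.93e-07) for DU145 against BPH-1 and 3.88 ± 0.14 (SE, adjusted p = 1.32e-07) for PC3 against DU145. PC3 and BPH-1 differed by 0.07 ± 0.14 (SE, adjusted p = 0.661), a difference below 0 without BPH-1 replicate 2 (-0.03, adjusted p = 0.848) and called lower after the GC correction (-0.46, adjusted p = 0.0185). In DU145 replicates 1 and 2, which held PTPRC, HOXA9 was at 0.145 and 0.0722.

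HOXA13, the most posterior member of HOXA and needed for the hand, foot and urogenital tract, was highest in PC3. It was at 4.001, 4.62, 4.15 and 5.64 in BPH-1, 12.3, 11.98, 11.1 and 6.08 in PC3 and 0.188, 0.301, 0.0878 and 0.366 in DU145. PC3 replicate 4 was well below the other PC3 libraries but still above BPH-1. The log2 fold change was 0.99 ± 0.21 (SE, adjusted p = 0.00214) for PC3 against BPH-1, -2.18 ± 0.14 (SE, adjusted p = 1.72e-06) for DU145 against BPH-1 and 3.16 ± 0.22 (SE, adjusted p = 5.41e-06) for PC3 against DU145. HOXA11, a regulator of limb, kidney and uterine development, followed the same order, at 4.49, 2.29, 5.28 and 4.41 in BPH-1, 6.67, 5.35, 11.8 and 9.25 in PC3 and 2.49, 1.69, 0.512 and 1.93 in DU145. BPH-1 overlapped DU145, through BPH-1 replicate 2 and DU145 replicate 1, and only just stayed below PC3. Against BPH-1, PC3 rose by 0.85 (adjusted p = 0.016) and DU145 fell, at -0.97 (adjusted p = 0.0145). The rise was lost with the same FPKM sum per library (0.62, adjusted p = 0.0539) and after the GC correction (0.25, adjusted p = 0.38), and the fall with DU145 replicates 1 and 2 only (-0.70, adjusted p = 0.0733). Of the exon bases of HOXA11, 31.1% are shared with HOXA11-AS on the other strand, and whether the counting used strand is not given in the sources used here.

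HOXA10, HOXA5 and HOXA6 were likewise highest in PC3, with no overlap with either other line. HOXA10, which patterns the uterus and the lumbar spine, was at 1.17, 1.37, 1.24 and 1.69 in BPH-1, 3.78, 3.19, 3.19 and 4.65 in PC3 and 2.06, 1.47, 1.96 and 0.922 in DU145. HOXA5, a lung and mammary regulator, was at 2.09, 2.67, 2.69 and 2.74, 4.12, 4.67, 3.81 and 3.93 and 1.30, 1.42, 1.30 and 1.28 in the same order. The rise of PC3 over BPH-1 was 0.98 (adjusted p = 0.000158) for HOXA10, 0.53 (adjusted p = 0.0026) for HOXA5 and 1.02 (adjusted p = 0.000105) for HOXA6. HOXA6 was at 0.647, 0.581, 0.429 and 0.924 in BPH-1, 1.84, 2.104, 2.80 and 2.65 in PC3 and 0.993, 0.510, 0.719 and 0.827 in DU145. Of these 3 genes, HOXA5 alone fell in DU145 against BPH-1 (-0.60, adjusted p = 0.00254), and HOXA10 and HOXA6 differed by 0.12 (adjusted p = 0.561) and 0.10 (adjusted p = 0.481). After the GC correction the rise of HOXA5 in PC3 was no longer called (0.10, adjusted p = 0.56).

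HOXA7 was highest in BPH-1. Its level was 5.12, 4.50, 6.12 and 5.83 in BPH-1, 0.728, 0.949, 0.656 and 0.854 in PC3 and 0.241, 0.199, 0.190 and 0.145 in DU145. This trunk gene fell in both PCa lines, with log2 fold changes of -1.83 (adjusted p = 1.76e-06) in PC3 and -2.41 (adjusted p = 6.46e-07) in DU145. Of its exon bases, 62.5% are shared with HOXA-AS3 on the other strand, itself at 0.0259 to 0.0768 FPKM in BPH-1. HOXA3 was at 0.523, 0.747, 0.825 and 1.14, 1.19, 0.603, 1.30 and 0.600 and 1.31, 0.990, 1.59 and 0.925, its libraries overlapped in each comparison and it passed no test. Of the HOXA genes, DU145 thus had HOXA3, HOXA5, HOXA10 and HOXA11 at a mean of 1 FPKM or more and HOXA4, HOXA7, HOXA9 and HOXA13 at no more than 0.366 FPKM in a library.

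HOXD10 and HOXD11, posterior genes that act in limb and spine, were confined to BPH-1 among these 12 libraries, save for the 4 reads given below. HOXD10 was at 10.3, 11.9, 7.98 and 11.5 FPKM in BPH-1, at 0 in PC3 and at 0, 0.0157, 0 and 0 in DU145. HOXD11 was at 7.13, 8.03, 5.75 and 8.42 in BPH-1, at 0 in PC3 and at 0, 0.0659, 0 and 0 in DU145. All the DU145 signal, 1 read of HOXD10 and 3 of HOXD11, lay in replicate 2. Against the limit of 3 reads per library, HOXD10 was at least 181-fold lower in PC3 than in BPH-1 and HOXD11 at least 91.1-fold lower. Against DU145 the ratio was 2658 for HOXD10 (exact Poisson 95% interval 477 to 105000, counting error only) and 445 for HOXD11 (152 to 2159). The limma log2 fold change, which depends on the added 1, was -3.50 (adjusted p = 6.06e-08) for HOXD10 in PC3 and -3.50 (adjusted p = 2.14e-07) in DU145. DU145 replicates 1 and 2, with PTPRC near the BPH-1 level, held 0 and 1 reads of HOXD10. The exons of HOXD10 and HOXD11 share 452 bases on the same strand, 16.8% of HOXD10 and 21.4% of HOXD11, so their reads are not fully separate.

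HOXD9 split the PCa lines. It was at 7.14, 7.64, 6.10 and 8.46 in BPH-1, at 0 in PC3 and at 4.12, 1.97, 4.02 and 3.19 in DU145. No line overlapped another, and PC3 held no read. DU145 against BPH-1 gave -0.97 ± 0.20 (SE, adjusted p = 0.00227), and HOXD9 was at least 61.1-fold lower in PC3 than in BPH-1 and at least 27.7-fold lower than in DU145. HOXD13, the last gene of the cluster, which shapes digits and the urogenital tract, was missing from the other line. It was at 4.23, 2.75, 3.39 and 3.83 in BPH-1, 1.07, 0.749, 0.869 and 1.31 in PC3 and 0 in each DU145 library. PC3 was below BPH-1 (-1.18, adjusted p = 6.29e-05), and DU145 was at least 40.4-fold below BPH-1 and at least 11.4-fold below PC3. Of HOXD9, HOXD10, HOXD11 and HOXD13, only HOXD13 in PC3 and only HOXD9 in DU145 thus passed the limit of 3 reads a library.

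HOXD4 is uncertain. It was listed at 0, 1.39, 0 and 0.875 in BPH-1, with 31 and 20 reads in replicates 2 and 4, at 1.74, 1.34, 0.936 and 0.738 in PC3 and at 0 in DU145. A transcript, AC009336.2, covers 80.5% of its exon bases on the same strand and 62.2% of those of HOXD3. PC3 against BPH-1 gave 0.57 (adjusted p = 0.108), and the difference was called without BPH-1 replicate 2 (0.81, adjusted p = 0.0203). PC3 was at least 8.85-fold above DU145.

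HOXC summed to similar levels in BPH-1 and PC3, at 13.49 ± 0.83 and 13.96 ± 0.72 FPKM (SD, n = 4), and to 17.6 ± 1.9 in DU145. HOXC9 and HOXC10, posterior genes of trunk and hind limb, stood out in DU145. HOXC9 was at 0.0360, 0.164, 0.0894 and 0.0356 in BPH-1, 0.0857, 0.162, 0.2202 and 0.214 in PC3 and 4.33, 3.23, 4.44 and 3.27 in DU145. HOXC10 was at 0.235, 0.377, 0.288 and 0.259, 0.427, 0.637, 0.706 and 0.493 and 3.49, 3.29, 5.06 and 3.12 in the same order. Each DU145 library exceeded the other 8 for both genes. DU145 rose above BPH-1 by 2.15 ± 0.13 (SE, adjusted p = 9.85e-07) for HOXC9 and by 1.86 ± 0.15 (SE, adjusted p = 5.23e-06) for HOXC10. HOXC9 did not pass the filter on low reads between PC3 and BPH-1. The small rise of HOXC10 in PC3 (0.28, adjusted p = 0.00585) was not called in a fit over all 3 lines (adjusted p = 0.0719) or after the GC correction (adjusted p = 0.261).

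HOXC8, an organiser of the thoracic region, fell in both PCa lines. It was at 6.46, 6.38, 7.13 and 7.39 in BPH-1, 4.33, 3.75, 3.85 and 3.27 in PC3 and 2.68, 3.21, 2.30 and 3.75 in DU145. The log2 fold change was -0.71 (adjusted p = 0.000368) in PC3 and -0.99 (adjusted p = 0.000501) in DU145, and PC3 and DU145 overlapped (0.28, adjusted p = 0.192). HOXC6 was highest in PC3, with 1.73, 1.25, 1.59 and 2.16 in BPH-1, 2.84, 2.63, 3.05 and 3.27 in PC3 and 0.964, 1.23, 1.22 and 1.12 in DU145. PC3 rose by 0.56 (adjusted p = 0.0035) over BPH-1, not called after the GC correction (0.13, adjusted p = 0.424). DU145 lay below BPH-1, at -0.32 (adjusted p = 0.0616), and this was called without BPH-1 replicate 2 (adjusted p = 0.0326), with the same FPKM sum (-0.47, adjusted p = 0.0127), after the GC correction (-0.73, adjusted p = 0.00308), in the fit over all 3 lines (adjusted p = 0.0418) and by the exact permutation test (p = 0.0286).

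HOXC13, which is known from hair and nail, was read in every library, at 2.46, 4.27, 2.18 and 3.20 in BPH-1, 4.68, 4.67, 5.42 and 6.25 in PC3 and 3.85, 2.48, 3.90 and 3.72 in DU145. PC3 exceeded BPH-1 by 0.66 (adjusted p = 0.00781) and DU145 by 0.48 (adjusted p = 0.0392). The second call was lost when any of PC3 replicates 1 to 4 or DU145 replicates 1, 2 or 4 was left out (adjusted p = 0.0576 to 0.0954) and with DU145 replicates 1 and 2 only (adjusted p = 0.0609) or replicates 3 and 4 only (adjusted p = 0.161), and with voom (adjusted p = 0.059). The first was lost with the same FPKM sum (adjusted p = 0.0506) and after the GC correction (0.035, adjusted p = 0.856). HOXC5 was at 1.19, 0.726, 1.75 and 0.817, 0.813, 1.29, 0.759 and 1.07 and 1.71, 1.26, 1.98 and 1.65 and overlapped in each comparison. It was called lower in PC3 than in DU145 (-0.42, adjusted p = 0.0344), and this call was lost without any of PC3 replicates 1, 3 and 4 or DU145 replicates 1, 3 and 4 (adjusted p = 0.0512 to 0.103), with DU145 replicates 1 and 2 only (adjusted p = 0.18) or replicates 3 and 4 only (adjusted p = 0.0568), and also with no filter, upper-quartile scaling, voom or the GC correction (adjusted p = 0.0528 to 0.0688). The exact permutation test gave p = 0.0571 for HOXC5 in PC3 against DU145. HOXC5 was called in DU145 against BPH-1 without BPH-1 replicate 3 (0.47, adjusted p = 0.0294), and in PC3 against BPH-1 after the GC correction (-0.47, adjusted p = 0.0439). Of its exon bases, 59.9% are also listed under a second, noncoding HOXC5 entry.

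The other 11 members had a mean under 1 FPKM in every line. HOXC12 had no read in any library, HOXB1 had about 2 reads in 1 PC3 library alone, and HOXD12 had at most 6 reads in a library. HOXA4 was at 0.447 to 1.002 in BPH-1 and 0.341 to 1.16 in PC3, whereas DU145 held 3 reads in all, a ratio of 72.1 for BPH-1 over DU145 (exact Poisson 95% interval 24.7 to 349.7). HOXD3 was at 0.0591 to 0.151 in BPH-1, 0.0520 to 0.139 in PC3 and 0 in DU145, at least 2.46-fold below BPH-1. HOXB2 was instead lowest in PC3, at 0.520 to 0.883 in BPH-1, 0.0468 to 0.0925 in PC3 and 0.337 to 1.196 in DU145. The remaining 5, HOXA2, HOXC4, HOXC11, HOXD1 and HOXD8, were detected in every line. In all, 10 members had no more than 3 reads in any DU145 library, 6 in any PC3 library and 2 in any BPH-1 library. A lower level in bulk RNA can come from fewer cells with the transcript or from less of it per cell, which cannot be told apart here.

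Transcripts next to the members were examined as well. PRAC1, a prostate and colon transcript that lies 2.24 kb from HOXB13, was at 0 in BPH-1, at 52.4, 72.2, 89.8 and 57.8 FPKM in PC3 and at 0 in DU145. It was at least 135-fold higher in PC3 than in BPH-1, although BPH-1 had reads of HOXB13. PRAC2, on the other strand between them, was at 0.480, 1.09, 0.417 and 0.830 in BPH-1, 10.1, 10.3, 10.4 and 11.9 in PC3 and 0, 0.0567, 0 and 0 in DU145. PC3 exceeded BPH-1 by 2.79 (adjusted p = 3.92e-07). Of 15 neighbours of the clusters, 12 were tested in PC3 against BPH-1, of which 5 rose (41.7%) and 3 fell (25%), against 27.1% and 40.4% of all genes. For DU145 against BPH-1, 11 were tested, of which 6 rose (54.5%) and 3 fell (27.3%), against 30.3% and 32.4%.

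**Figure D5:**
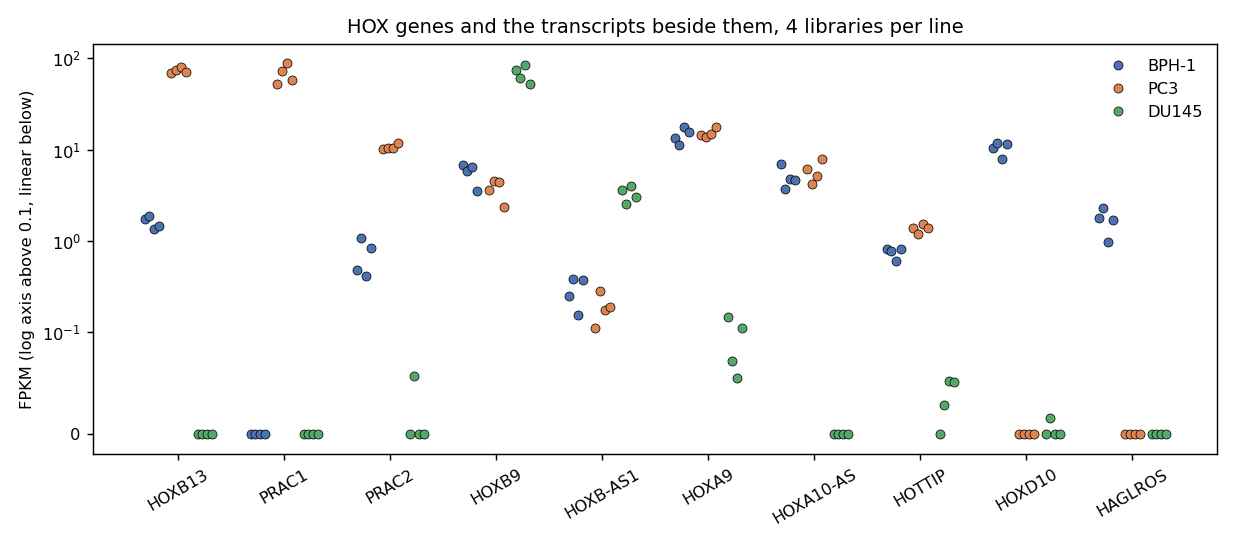
FPKM of 4 HOX genes and 6 transcripts in or near the same clusters by library (4 per line), on an axis that is logarithmic above 0.1 and linear below. PRAC1 and PRAC2 follow HOXB13 in PC3, and HOXA10-AS and HOTTIP are at or near 0 in DU145, as HOXA9 is. HOXB-AS1 is highest in DU145, as HOXB9 is, but it overlaps HOXB2 and HOXB3 rather than HOXB9.

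Of 19 noncoding genes of the clusters, 11 were tested in PC3 against BPH-1, of which 3 rose (27.3%) and 4 fell (36.4%), against 27.1% and 40.4% of all genes. In DU145 against BPH-1, 12 were tested, 6 rose (50%) and 5 fell (41.7%), against 30.3% and 32.4%. In PC3 against DU145, 4 of 12 (33.3%) were higher in PC3 and 5 (41.7%) in DU145, against 20.0% and 28.4%. HOXA10-AS, which overlaps HOXA9 and HOXA10 on the other strand, was at 7.01, 3.67, 4.81 and 4.599 in BPH-1, 6.19, 4.22, 5.12 and 7.89 in PC3 and 0 in DU145. HOTTIP, at the HOXA13 end, was at 0.609 to 0.820, 1.21 to 1.53 and 0 to 0.0517. HOXB-AS1 was at 3.66, 2.56, 3.97 and 3.01 in DU145 and at most 0.382 elsewhere (1.73, adjusted p = 6.32e-06 against BPH-1). It overlaps HOXB2 and HOXB3 on the other strand. In the same comparison HOXB2 differed by 0.007 (adjusted p = 0.972) and HOXB3 by -0.18 (adjusted p = 0.219). HAGLROS, in the HOXD cluster, was at 1.79, 2.28, 0.977 and 1.72 in BPH-1 and 0 in both PCa lines. HAGLR, however, was highest in DU145, at 1.84 to 3.21 against 0.507 to 1.06 in BPH-1, so not every HOXD transcript followed HOXD10. Where such a gene lies over HOX exons and strand was not used, reads of the 2 cannot be told apart, which concerns 19 of the 39 members.

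HOX proteins bind DNA together with the TALE homeodomain cofactors of the PBX, MEIS and PKNOX families. Of 9 such genes, 8 were tested in each comparison, and 2 rose and 2 fell (25% each) in PC3 against BPH-1, where 27.1% and 40.4% of all genes did. In DU145 against BPH-1, 3 rose (37.5%) and 2 fell (25%), against 30.3% and 32.4%, and in PC3 against DU145 2 were higher in each line (25%), against 20.0% and 28.4%. PBX2 was at 7.84 to 14.9 FPKM in BPH-1, 16.4 to 20.1 in PC3 and 23.6 to 33.9 in DU145, with a rise of 1.48 (adjusted p = 0.000259) in DU145. MEIS3 was at 0.6202 to 1.30, 0.180 to 0.285 and 2.69 to 3.61, higher in DU145 than in PC3 (-1.69, adjusted p = 5.18e-06).

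Trithorax proteins keep HOX genes active and Polycomb proteins keep them silent. Of 13 trithorax genes, 3 rose (23.1%) and 8 fell (61.5%) in PC3 against BPH-1, where 27.1% and 40.4% of all genes did. In DU145 against BPH-1, 3 rose (23.1%) and 5 fell (38.5%), against 30.3% and 32.4%, and 1 was higher in PC3 (7.69%) and 3 in DU145 (23.1%), against 20.0% and 28.4%. PSIP1, which tethers the MLL1 complex to chromatin, fell in both PCa lines, with a log2 fold change of -2.04 (adjusted p = 3.19e-05) in PC3 and -1.52 (adjusted p = 0.000878) in DU145. KMT2A, the MLL1 methyltransferase, likewise fell in both, with -1.39 (adjusted p = 0.00345) in PC3 and -2.001 (adjusted p = 0.00218) in DU145. KDM6B, an H3K27 demethylase, was lower in PC3 than in DU145 (-1.52, adjusted p = 3.98e-05). Of 18 Polycomb genes, 6 rose (33.3%) and 7 fell (38.9%) in PC3 against BPH-1, against 27.1% and 40.4% of all genes. Against BPH-1, 9 rose in DU145 (50%) and 5 fell (27.8%), against 30.3% and 32.4%, and 1 was higher in PC3 (5.56%) and 9 in DU145 (50%), against 20.0% and 28.4%. SUZ12, a core subunit of the PRC2 complex, fell in both PCa lines, with log2 fold changes of -2.44 (adjusted p = 9.46e-06) in PC3 and -2.44 (adjusted p = 5.67e-05) in DU145. CBX2 was at 5.74 to 6.40 in BPH-1, 10.99 to 14.4 in PC3 and 1.34 to 2.59 in DU145 (2.19, adjusted p = 1.19e-05 for PC3 against DU145). KMT2A and SUZ12 each varied widely within DU145, at 0.337, 2.88, 0.185 and 3.63 and 1.26, 2.85, 0.372 and 1.69, with replicates 1 and 3 apart from 2 and 4. Within PC3 they also varied, at 3.84, 4.33, 2.58 and 0.675 and 2.28, 1.87, 0.945 and 0.739. PSIP1 spanned 19.9 to 22.6 in BPH-1, 2.43 to 6.33 in PC3 and 3.90 to 11.6 in DU145.

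Of 11 CDX and other homeobox genes, 8 were tested in each comparison, and 4 rose (50%) and 3 fell (37.5%) in PC3 against BPH-1, where 27.1% and 40.4% of all genes did. For DU145 the counts were 2 that rose (25%) and 3 that fell (37.5%), against 30.3% and 32.4%, and 3 were higher in PC3 (37.5%) and 4 in DU145 (50%), against 20.0% and 28.4%. SIX2, a renal progenitor factor, was at 0.935 to 1.12 in BPH-1, 16.2 to 20.8 in PC3 and 0.323 to 0.528 in DU145 (3.78, adjusted p = 1.55e-07 for PC3 against DU145). DLX2, a forebrain and craniofacial factor, was at 4.70 to 8.93, 0.590 to 1.55 and 1.99 to 3.18 in the same order and fell in both PCa lines (-1.86, adjusted p = 4.32e-05 in PC3 and -1.15, adjusted p = 0.000944 in DU145). Cell type markers also differed between the lines, with EPCAM and CDH1 as given above. Of the 5 epithelial markers, 1 rose (20%) and 2 fell (40%) in each PCa line against BPH-1. The shares of all genes were 27.1% and 40.4% for PC3 and 30.3% and 32.4% for DU145. The 5 mesenchymal markers summed to 3.71 to 5.65 FPKM in BPH-1, 101.6 to 148 in PC3 and 52.5 to 71.0 in DU145, of which VIM gave 1.11 to 1.32, 96.8 to 144 and 51.4 to 68.9. COL1A1 rose in PC3 (0.40, adjusted p = 0.0377) and fell in DU145 (-1.24, adjusted p = 5.3e-05), ACTA2 was called in no comparison, and DES and COL1A2 passed the filter in none. Their part in the HOX results was not tested.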

How the data were processed

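RNA sequencing of 12 libraries, 4 each of BPH-1, PC3 and DU145, was examined from the deposited table of 58302 genes. The authors deposited FPKM values with GRCh38 coordinates, although the header names no unit, and the submitters' processing notes name CASAVA 1.8, HISAT2 2.1.0 and edgeR without a role. The counting program, gene annotation, strand use and any pooling are not given in the sources used here. Gene lengths fitted the sum of distinct exons in GENCODE 29, in which overlapping exons were not merged. With them 92.3% to 94.0% of low values (at most 10 reads) were whole reads within 0.02. For 2 members, HOXA13 among them, the length was taken from the steps of the values. HOXB1, with a single value above 0, did not give whole reads at its GENCODE length, so its read count is approximate. These recovered reads served the filter and the limit of 3 reads, which covers counting error only. For 263 genes no length was found and they were not tested.

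Genes with at least 10 reads, scaled to the median depth, in at least 4 libraries and 15 reads in all were compared on log2(FPKM + 1) with limma 3.58.1 (trend, R 4.3.3), with only the 2 lines compared in a fit, and p-values were adjusted over all genes tested. A count model was not used because the table holds no counts. Sums by cluster and position carry no test. Members described by library had a mean of at least 1 FPKM in a line, and from each list of TALE, trithorax, Polycomb and homeobox genes the gene with the largest absolute change in each comparison was named. Neighbouring and noncoding genes and markers were named where their level is set beside a HOX result. Values of 1 member and of 2 genes of the lists are not reported here, although counts and sums include them. Members and lists were chosen with earlier results of these data known. Scripts used Python 3.11.15 and scipy 1.17.1 and were tested on simulated data. Every pair of replicate libraries differed beyond sampling noise (a chi-square of 17.3 to 215 per gene), so none was counted as a duplicate. Alternatives were another pseudocount (0.1), no filter or a stricter one, other scalings, voom, a replicate block, 1 fit over all lines, leaving out each library and exact permutation tests. A GC correction and subsets of the DU145 libraries were added after seeing the data.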

Additional observations from a re-analysis of the deposited data

Results flagged for a closer look

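Among 104 groups of 4 libraries in which a HOX gene's values were not all equal, 7 held a library far from the other 3 by Dixon's test, where chance gives about 1 in 20. HOXA5 was at 2.09 FPKM in BPH-1 replicate 1 against 2.67 to 2.74 in the others, and HOXC13 was at 2.48 in DU145 replicate 2 against 3.72 to 3.91. HOXD3 was at 0.151 in BPH-1 replicate 3 against 0.0591 to 0.0702. The other 4 were genes with a few reads in a single library and 0 in the rest, namely HOXB1 in PC3 replicate 3 (0.0420 FPKM, about 2 reads), HOXD10 and HOXD11 in DU145 replicate 2 (0.0157 and 0.0659, 1 and 3 reads) and HOXD12 in DU145 replicate 3 (0.06003, 2 reads).

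In 5 members the PCa lines moved in opposite directions from BPH-1, with all 3 comparisons past the threshold by limma and n = 4 libraries per line. The share of all genes that did so is not given, so this count says nothing about HOX genes as a set. The log2 fold change of PC3 against DU145, which tests the difference itself, was 6.23 for HOXB13 (adjusted p = 1.29e-08, a value set by the added 1 because DU145 held no read), 3.16 for HOXA13 (adjusted p = 5.41e-06), 1.82 for HOXA11 (adjusted p = 0.00103) and 1.14 for HOXA5 (adjusted p = 9.76e-05), all of which were higher in PC3 and lower in DU145 than in BPH-1. The rise in PC3 was no longer called after the GC correction for HOXA5 (0.10, adjusted p = 0.56) and HOXA11 (0.25, adjusted p = 0.38), nor the fall of HOXA11 with DU145 replicates 1 and 2 only (adjusted p = 0.0733). The difference was -4.05 for HOXB7 (adjusted p = 5.27e-07), lower in PC3 and higher in DU145, although the rise of HOXB7 in DU145 was not called without BPH-1 replicate 1 (adjusted p = 0.0566) or DU145 replicate 1 (adjusted p = 0.0645) and was turned to -0.09 by the GC correction.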

How the results depend on the processing

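Requiring 10 reads in every library removes members that a line lacks and left 15 members called in PC3 against BPH-1 (10 higher, 5 lower, beside 27.7% and 36.9% of all genes), 9 in DU145 against BPH-1 (4 higher, 5 lower, beside 28.7% and 29.9%) and 14 in PC3 against DU145 (7 higher, 7 lower, beside 18.2% and 22.9%). With an absolute log2 fold change over 1 the counts were 11 (4 higher, 7 lower), 14 (7 higher, 7 lower) and 15 (6 higher, 9 lower). The shares of all genes at this cut are not given, so these counts cannot be set beside them. The GC correction, left 6 higher in PC3 against BPH-1. All other counts stayed within 1.5 times of those reported. Bringing each library to the same FPKM sum moved the median log2 fold change of all genes from -0.13 to -0.28 in PC3 against BPH-1 and from -0.03 to -0.16 in DU145 against BPH-1, and the HOXA sum of PC3 to 44.6 FPKM, the HOXB and HOXC sums of BPH-1 to 25.1 and 15.3 and the HOXC sum of PC3 to 13.1. In PC3 against BPH-1 the split of all genes tested, 27.1% higher and 40.4% lower, became 20.95% and 48.3% with the same sum, 18.9% and 48.6% with the GC correction and 32.1% and 35.9% with upper-quartile scaling.

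Of 78 fold changes of single members, repeated 1482 times in all, 17 repeats reversed, 14 gained and 39 lost a call. None of the reversed fold changes had been called except HOXB7 in DU145 against BPH-1 (-0.091 with the GC correction), and the cause was not tested. In PC3 against BPH-1, HOXA3 became -0.045 with the same sum and -0.24 with the GC correction and ranged from -0.014 to 0.163 with single libraries left out, HOXA9 became -0.18 and -0.46 and ranged from -0.03 to 0.17, and HOXC5 became 0.011 with upper-quartile scaling and ranged from -0.169 to 0.054. In DU145 against BPH-1 the same sum gave -0.001 for HOXA6, -0.027 for HOXA10 and -0.02 for HOXC13, and the GC correction gave -0.11 for HOXA3, -0.24 for HOXA6, -0.33 for HOXA10, -0.13 for HOXC5 and -0.45 for HOXC13.

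Replicate numbers did not pair the libraries, since deviations of same-numbered libraries correlated at -0.66 to 0.52 between PC3 and DU145, -0.13 to 0.09 between PC3 and BPH-1 and -0.09 to -0.06 between DU145 and BPH-1. With the replicate number as a block, 24, 23 and 28 members were called against 23, 23 and 31 without it. Of all genes, the block gave 26.2% higher and 39.2% lower in PC3 against BPH-1. These shares were 28.2% and 31.35% in DU145 against BPH-1 and 16.6% and 24.45% in PC3 against DU145. With the block HOXB9 was called lower in PC3 than in BPH-1 (adjusted p = 0.0176), and HOXC5 and HOXC13 were no longer called between PC3 and DU145. With DU145 replicates 3 and 4 only, 22 members were called against BPH-1 (9 higher, 13 lower, beside 26.35% and 28.55% of all genes). Between PC3 and DU145 this subset gave 29 (13 higher, 16 lower, beside 14.3% and 23.2%). Replicates 1 and 2 only gave 22 (10 higher, 12 lower, beside 25.4% and 27.8%) and 29 (13 higher, 16 lower, beside 15.99% and 24.95%). An exact permutation test of 4 against 4 libraries cannot go below p = 0.0286, which HOXA11 in DU145 against BPH-1 (p = 0.0571) did not reach. At these depths a gene with 0 reads may still be present at up to 3 reads per library.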
